A study of Mus musculus with 3 samples.

Results

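Vascular cells were sought among single cells of mouse tumors by expression alone: a barcode was taken as endothelial where at least 2 of Pecam1, Cdh5, Kdr, Emcn, Egfl7 and Flt1 had a unique molecular identifier (UMI, a count of 1 captured RNA molecule). It was taken as mural where at least 2 of Rgs5, Notch3, Myh11, Des, Cspg4 and Acta2 had one and fewer than 2 endothelial genes did. Barcodes also needed at least 200 genes, at most 20% mitochondrial UMIs, less than 0.5% of UMIs from the pigment genes Dct and Pmel, and no UMI of Cd3e, Cd79a, Ncr1, Dcn or Pdgfra. This left 59 barcodes of the endothelial rule and 20 of the mural rule, 79 of 24668 barcodes past the cell filter and of 27374 deposited. The members were thus chosen by the measured UMIs of these 19 genes and their mitochondrial share, and what separates the groups is given as a description, with no test.

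Endothelial cells line vessels, read vascular endothelial growth factor (VEGF) through the receptors Kdr and Flt1 and hold to each other by Cdh5 (VE-cadherin). Mural cells wrap that lining: pericytes, which depend on endothelial platelet-derived growth factor B (Pdgfb) acting on Pdgfrb, and smooth muscle cells, which carry contractile proteins such as Acta2 and Myh11. In growing tumor vessels, endothelial tip cells lead sprouts and present the Notch ligand Dll4 to their neighbours, whereas stalk cells receive that signal.

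The tumors came from B16-F10, a mouse melanoma line of the C57BL/6 strain, grown in C57BL/6J mice of 6 to 8 weeks. The labels name 2 libraries shMib2, made with different short hairpin RNAs against the ubiquitin ligase Mib2 (shMib2 replicates 1 and 2), and 1 library shCtrl, with a control hairpin. Each library pooled dissociated tumors of 3 mice, so the mice cannot be told apart and shCtrl has no replicate. They held 9428, 8388 and 9558 barcodes (shMib2 replicate 1, shMib2 replicate 2 and shCtrl, the order used for every set of 3 values), with medians of 21441, 11814 and 25181 UMIs. The libraries shared 20 to 30 barcode sequences by pair, none of them a member. Mib2 itself did not follow the labels in the barcodes at or over 0.5% Dct plus Pmel (19013 barcodes, called melanoma-gene barcodes here): it stood at 3.13 and 2.66 UMIs per 1000000 (CPM) in the libraries labelled shMib2, against 2.49 CPM in the library labelled shCtrl. The knockdown was thus not seen at this level, and shMib2 and shCtrl stand below for the libraries so labelled.

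Many members carried little of the named cell type beyond the genes that chose them. Of the 59 endothelial rule barcodes, 28 carried Pecam1 and Egfl7 and no other gene of the 6 (6, 11 and 11), while 31 carried Cdh5, Kdr, Emcn or Flt1 (9, 20 and 2). In melanoma-gene barcodes a UMI of Egfl7 was found in 66.4%, 75.7% and 72.7%, and one of Pecam1 in 8.1%, 11.6% and 9.0%, while Cdh5 had 11 UMIs and Kdr 15 UMIs over all 19013. Of the 20 mural rule barcodes, 7 had only Des and Cspg4, and Des had a UMI in 27.0%, 33.3% and 32.3% of melanoma-gene barcodes. The pairs of genes that admitted these members were thus detected in melanoma-gene barcodes as well.

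Egfl7, a protein secreted by endothelium, lies at chromosome 2, 26580014 to 26593120 (GENCODE vM21 on mm10), and Pecam1, an adhesion molecule of endothelium and platelets, at chromosome 11, 106654217 to 106750628. Cdh5 lies at chromosome 8, 104101625 to 104144511. Des, the intermediate filament of muscle, lies at chromosome 1, 75360329 to 75368579, and Cspg4 (the pericyte proteoglycan NG2) at chromosome 9, 56865033 to 56899870.

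**Figure D1:**
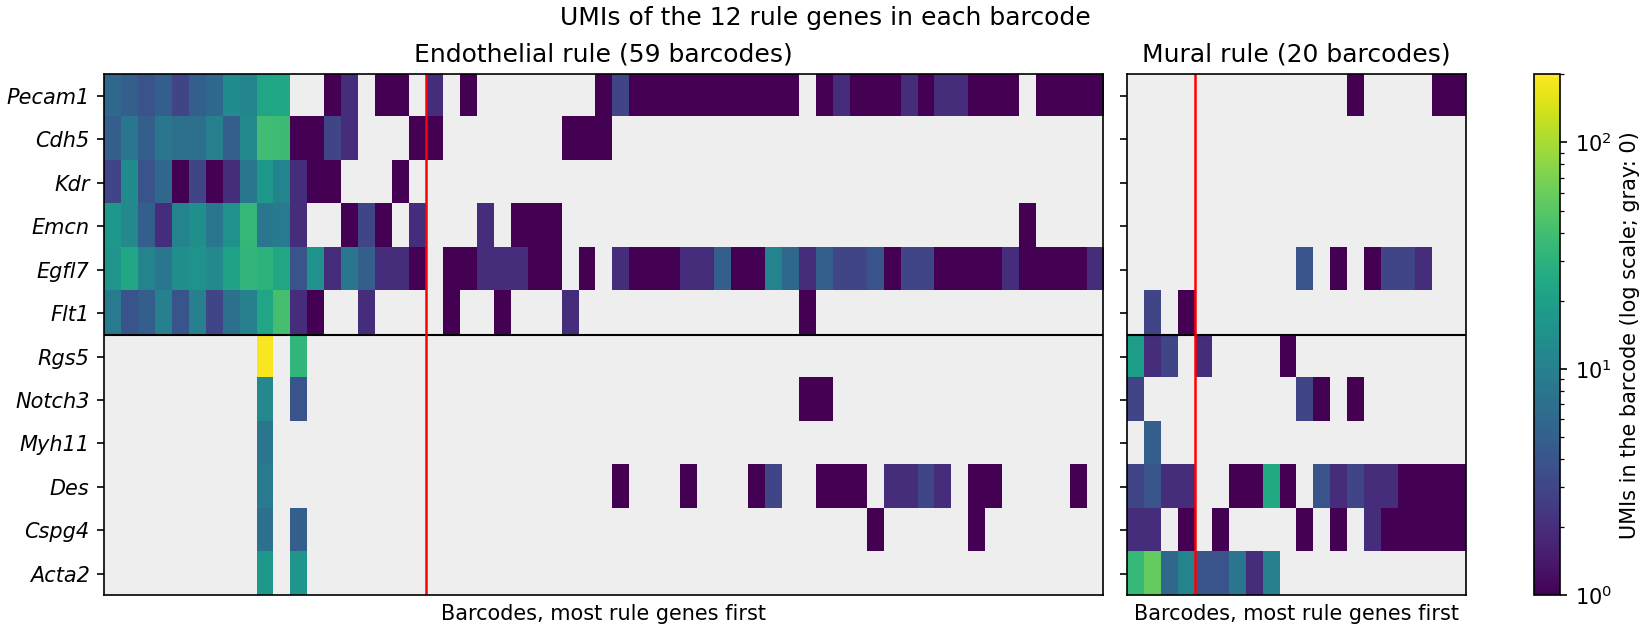
UMIs of the 12 genes of the rule (rows) in each of the 79 barcodes (columns), on a log color scale, endothelial rule left of mural rule; the red lines set apart barcodes with 3 or more genes of their own 6. By definition the 19 endothelial and 4 mural barcodes left of the lines show 3 or more of their own 6 genes and the other 56 exactly 2. All 6 endothelial genes were found in 11 of the 19, and only Pecam1 and Egfl7 in 28 endothelial rule barcodes.

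Other genes of the members differed with the number of rule genes. A list of 10 melanoma genes, of which the rule reads the first 2 through its ceiling (Dct, Pmel, Mlana, Tyrp1, Tyr, Slc45a2, Mitf, Sox10, Gpnmb and Ptgds) gave 7 or more detected genes in 29 of 40 endothelial rule barcodes with exactly 2 rule genes and in 0 of 19 with 3 or more. For the mural rule these were 10 of 16 and 0 of 4. At least 5 of 22 other endothelial genes were detected in 15 of the 19 endothelial barcodes with 3 or more genes (4, 10 and 1), in 0 of the 40 with 2 and in 0 of the 20 mural rule barcodes. The melanoma list took 0.832% of UMIs in endothelial rule barcodes with exactly 2 genes and 0.044% in those with 3 or more, against 2.28% in melanoma-gene barcodes. Members with 2 genes were also deeper, with a median of 24806 UMIs against 6641 UMIs in those with 3 or more. The values below therefore name which set they come from: the whole rule, or the barcodes with 3 or more of 6 genes.

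**Figure D2:**
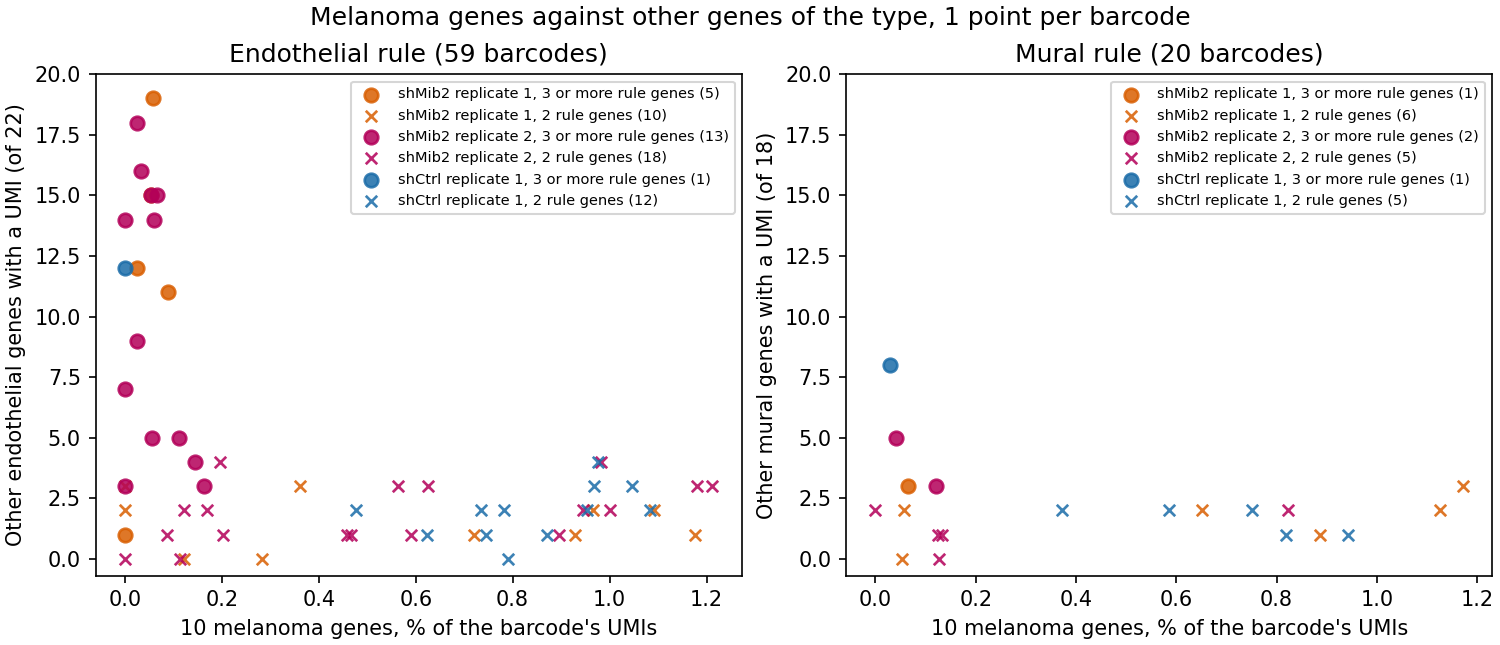
Each point is a barcode; the x axis is the share of its UMIs from 10 melanoma genes (percent) and the y axis the number of other endothelial genes detected of 22 (left) or other mural genes of 18 (right); filled points have 3 or more of the 6 rule genes and crosses have 2. No filled point carried 7 or more melanoma genes, and the barcodes with 5 or more other endothelial genes were all filled.

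Other cell types were looked for in the same way. At least 5 of 12 leukocyte genes were found in 4 endothelial rule barcodes, all with exactly 2 rule genes, and in 0 mural rule barcodes. One of the mural barcodes with 2 genes, in shMib2 replicate 1 (9603 UMIs, with 25 UMIs of Des and 10 of Acta2), carried 7 of 10 skeletal muscle genes. A pair of endothelial rule barcodes in shMib2 replicate 2 carried both programs. The first (42433 UMIs) had all 6 endothelial and all 6 mural genes, with 190 UMIs of Rgs5, 18 of 22 other endothelial and 18 of 18 other mural genes. The second (9038 UMIs) had 5 and 4, with 33 UMIs of Rgs5. These 2 barcodes held all 223 Rgs5 UMIs of the endothelial rule, against 27 in the whole mural rule, and neither was among the 1633 barcodes marked by the doublet score. They are left out of the stricter endothelial set below, which then holds 17 barcodes (5, 11 and 1) with 119981 UMIs, next to 4 mural barcodes (1, 2 and 1) with 28420 UMIs.

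The edge of the rule ran through the melanoma-gene barcodes. Of 1491 barcodes with 2 or more endothelial genes, 1415 lay at or over the Dct plus Pmel ceiling, 73 of them between 0.5% and 0.75%, while 23 of the 59 kept barcodes lay at 0.25% or more. For the mural genes, 403 of 489 lay at or over the ceiling, and 66 of the 86 under it were left out by the excluded genes, 64 of them by Dcn, a fibroblast proteoglycan. Just outside the gene number limit, 469 barcodes had exactly 1 endothelial gene and 250 exactly 1 mural gene.

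By library, the whole endothelial rule took 15, 31 and 13 barcodes, which is 0.175% (Wilson 95% interval 0.106 to 0.289), 0.426% (0.300 to 0.604) and 0.147% (0.0862 to 0.252) of barcodes past the filter. The mean of the shMib2-labelled libraries was 2.04 ± 1.2 times the shCtrl share (SD of 2 ratios), with ratios of 1.19 and 2.89. The interval of shMib2 replicate 2 lay above that of shCtrl, and that of shMib2 replicate 1 overlapped it. Barcodes with 3 or more endothelial genes numbered 5, 13 and 1, or 0.0584% (0.0249 to 0.137), 0.178% (0.104 to 0.305) and 0.0113% (0.0020 to 0.0642). These ratios were 5.15 and 15.7, and both rest on a single shCtrl barcode. Again the interval of shMib2 replicate 2 alone lay above that of shCtrl.

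The mural rule took 7, 7 and 6 barcodes, or 0.0817%, 0.0961% and 0.0681%, a ratio of 1.31 ± 0.15 (SD of 2 ratios). Counted among the barcodes under the Dct plus Pmel ceiling only (1910, 3103 and 642), the order turned: the endothelial rule made up 0.785%, 0.999% and 2.02% of these, a ratio of 0.44 ± 0.07, and the mural rule 0.366%, 0.226% and 0.935%. With 3 or more genes the endothelial share on that base was 0.262%, 0.419% and 0.156%, a ratio of 2.19 ± 0.71, and the 3 counting intervals overlapped. Intervals cover counting error only, and with 2 libraries against 1 an exact permutation test could not go below p = 0.33, so no share was shown to differ between labels.

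**Figure D3:**
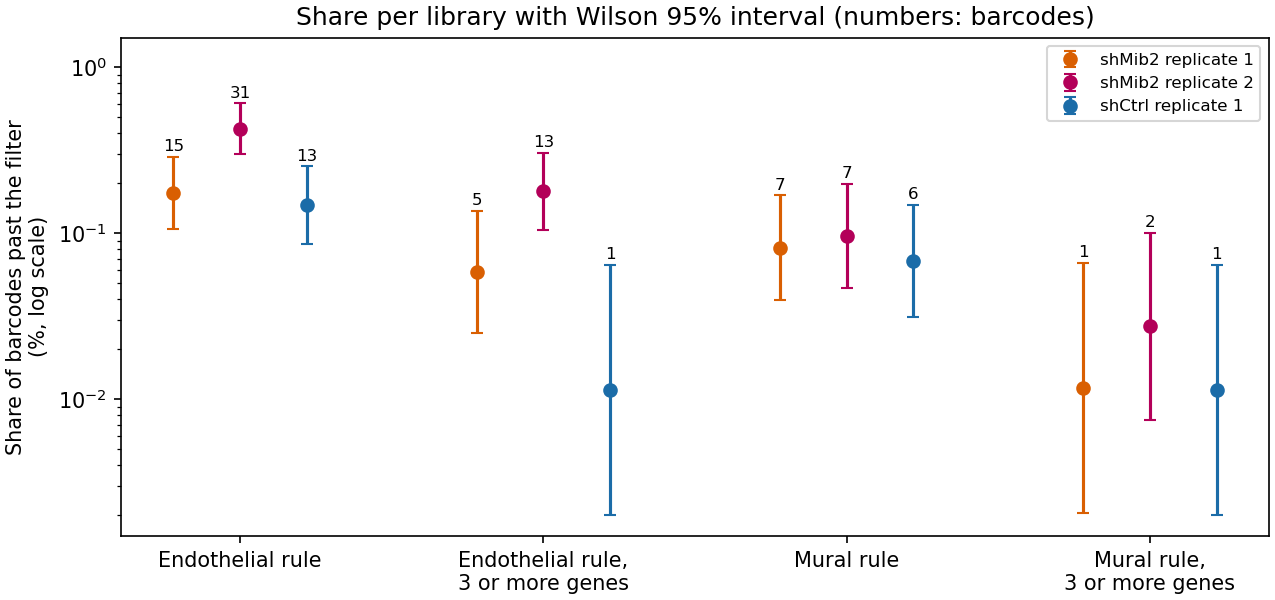
Share of barcodes past the cell filter (percent, log axis) in shMib2 replicate 1, shMib2 replicate 2 and shCtrl for the endothelial and mural rules and for barcodes with 3 or more genes; bars are Wilson 95% intervals. The 3 or more gene endothelial share stood at 0.0584%, 0.178% and 0.0113%, whereas the mural shares lay within each other's intervals.

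Within the 17 stricter endothelial barcodes, genes known from endothelium were detected that the rule did not name. Fabp4, a fatty acid carrier of capillary endothelium, had a UMI in 17 of 17 barcodes and stood at 5893 CPM (exact Poisson 95% interval 5466 to 6343), against 176 CPM (57.1 to 411) in the 4 stricter mural barcodes, where all 5 UMIs lay in 1 barcode, a 33.5-fold difference. Gpihbp1, which carries lipoprotein lipase to the capillary lumen, stood at 1467 CPM in 15 of 17 barcodes, and Ctla2a, a cysteine protease inhibitor, at 2459 CPM in 17 of 17. Both had 0 UMIs in the stricter mural barcodes. Against a floor of 3 UMIs over that group (106 CPM), they were at least 13.9-fold and at least 23.3-fold higher. Plvap, the protein of the diaphragms of fenestrated vessels, stood at 992 CPM in 14 of 17 barcodes, Esam, a junction protein, at 758 CPM in 13, and Cldn5, a tight junction claudin, at 508 CPM in 6. These 3 also had 0 UMIs in the stricter mural barcodes.

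Levels varied widely from barcode to barcode. Over the 19 barcodes with 3 or more genes, Fabp4 ranged from 2 to 216 UMIs and Igfbp3, an insulin-like growth factor binding protein, from 0 to 267 UMIs, both highest in the 42433-UMI barcode with both programs. That barcode held 42.4% of all Igfbp3 UMIs of the endothelial rule, and in the 17 without it Igfbp3 stood at 2884 CPM, with a UMI in 14. The 19 barcodes ranged from 611 to 42433 UMIs, so a gene missing from one may lie under its depth.

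Tip cell genes were present in the same barcodes. Esm1, secreted by tip cells, stood at 583 CPM in 9 of 17 barcodes (1457, 82.0 and 793 CPM by library), against 35.2 CPM in the stricter mural barcodes, and 46.4% of the Esm1 UMIs of the endothelial rule came from 1 barcode. Apln, the apelin ligand, stood at 467 CPM against 70.4 CPM (it was chosen after its values were seen). Dll4 stood at 192 CPM in 11 of 17 barcodes (247, 137 and 476 CPM), and Pdgfb at 258 CPM in 13 of 17 (296, 232 and 317 CPM), with 0 UMIs of either in the stricter mural barcodes. The shCtrl value is that of 1 barcode in each case. Adm, also of the tip list, stood the other way, at 167 CPM against 1091 CPM in the stricter mural barcodes. There, 30 of its 31 UMIs lay in 1 barcode. Pgf, of the same list, was also higher in the mural barcodes and is given below. Among the groups compared, 12 of the 15 tip list genes were highest in the stricter endothelial barcodes and 2 in the stricter mural ones.

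Several Notch genes were detected in the stricter endothelial barcodes. The receptors Notch1 and Notch4 stood at 133 and 142 CPM, the Notch targets Nrarp and Hes1 at 175 and 133 CPM. Of these 4, only Notch1 had a UMI in the stricter mural barcodes, at 35.2 CPM (1 UMI), and the floor of 106 CPM there leaves lower levels unseen. Rbpj, the DNA-binding partner of Notch, stood the other way, at 8.33 CPM (1 UMI) in the stricter endothelial barcodes. In the stricter mural ones it stood at 176 CPM (5 UMIs, 4 of them in 1 barcode). Mib1 stood at 41.7 CPM (5 UMIs) in the stricter endothelial and 35.2 CPM (1 UMI) in the stricter mural barcodes. Mib2 had 5 UMIs over the whole endothelial rule and 0 over the mural rule, too few to describe.

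The genes of vessel growth signals differed from one another between the sets. Vegfa, the main ligand of Kdr, had 0 UMIs in the 17 stricter endothelial barcodes, which allows up to 25 CPM, against 176 CPM in the stricter mural barcodes (5 UMIs, all in 1 barcode) and 110 CPM in melanoma-gene barcodes. Over the whole endothelial rule Vegfa had 234 UMIs, 233 of them in barcodes with 7 or more melanoma genes. The VEGF co-receptor Nrp1 stood at 308 CPM, against 70.4 CPM (2 UMIs). Nrp2, of the same list and with more UMIs over both rules, stood at 133 CPM against 141 CPM (4 UMIs). Vegfb stood at 33.3 CPM (4 UMIs) against 0 UMIs. Pgf, a ligand of Flt1, stood at 58.3 CPM in the stricter endothelial barcodes against 1161 CPM in the mural ones. There, 30 of its 33 UMIs lay in the same barcode as those of Vegfa. Tie1, a receptor kinase of the angiopoietin system, stood at 283 CPM in 11 of 17 barcodes (370, 205 and 635 CPM), the endothelial phosphatase Ptprb at 192 CPM and the ligand Angpt2, which loosens vessel walls, at 233 CPM, with 0 UMIs of all 3 in the stricter mural barcodes. Pdgfrb, the receptor of Pdgfb, had 0 UMIs in the stricter endothelial barcodes against 4 UMIs (141 CPM) in the stricter mural ones. The 2 barcodes with both programs, left out of the stricter endothelial set, had 16 and 7 UMIs of Pdgfrb, so this 0 depends on that choice. Pdgfa, of the same PDGF list, stood at 8.33 CPM (1 UMI) against 281 CPM (8 UMIs).

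Arterial and lymphatic genes were sparse, while some venous genes were detected. Prox1 and Pdpn, which mark lymphatic endothelium, had 0 UMIs in the 19 endothelial barcodes with 3 or more genes, while Flt4 and Itga9, less specific members of that list, had 10 UMIs each. The endothelin receptor Ednrb stood at 308 CPM in the 17 barcodes, against 0 UMIs in the stricter mural barcodes. Of the arterial list, Cxcl12, a chemokine, had 50 of its 57 endothelial rule UMIs in 1 barcode. Mgp, a matrix protein of the same list, stood at 16.7 CPM (2 UMIs) in the 17 barcodes against 1654 CPM (47 UMIs) in the stricter mural ones. Fbln5, an elastic fibre protein, had 2 UMIs in each set. The barcodes with both programs, left out of the 17, had 41 and 53 UMIs of Mgp and 13 and 0 of Fbln5. Of the venous list, Lrg1 stood at 158 CPM (19 UMIs, 14 of them in 1 barcode) against 0 UMIs. Nr2f2 stood at 108 CPM against 246 CPM and Cpe at 8.33 CPM (1 UMI) against 141 CPM (4 UMIs). Nrp2, also of that list, is given above.

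Basement membrane genes differed in how they lay. Col4a1 stood at 2142 CPM (1888 to 2421) in the stricter endothelial and 1900 CPM (1427 to 2479) in the stricter mural barcodes, Col4a2 at 1267 and 1161 CPM, and Sparc, a matrix protein, at 5709 and 5489 CPM, against 12.5 CPM for Col4a1 in melanoma-gene barcodes. The intervals of Col4a1 and of Sparc overlapped between the sets. These intervals cover counting error only and not the spread of barcodes or libraries, so whether the sets differ was not tested. Fn1, fibronectin, stood at 108 CPM (57.7 to 185) in the stricter endothelial barcodes. It stood at 1232 CPM (858 to 1713) in the stricter mural ones, where 27 of its 35 UMIs lay in 1 barcode. The barcodes with both programs, left out of the endothelial set, had 25 and 4 UMIs of Fn1. The major histocompatibility gene H2-D1 stood at 1200 CPM in the stricter endothelial barcodes and 528 CPM in the stricter mural ones.

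**Figure D4:**
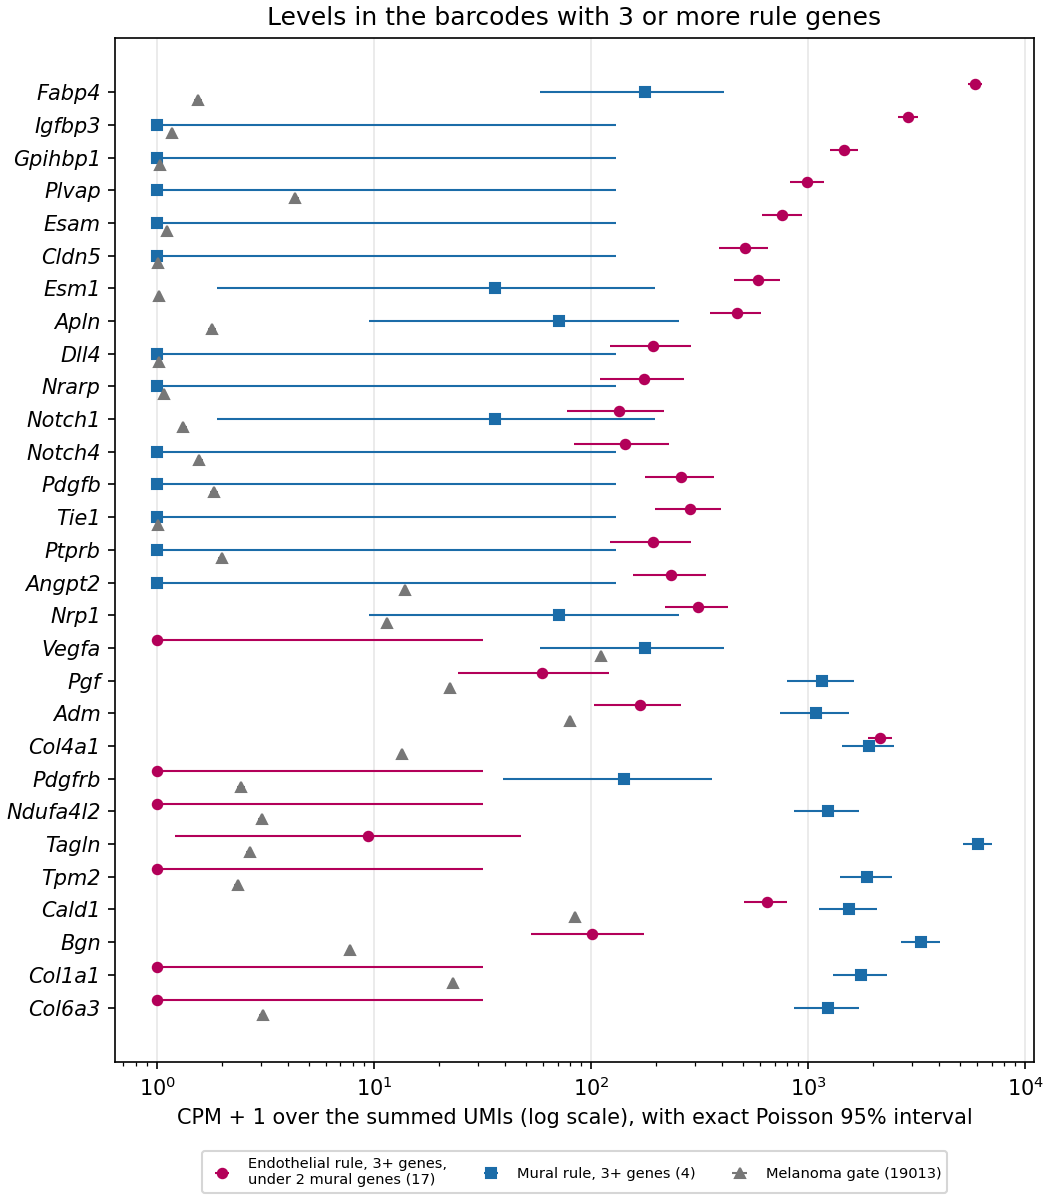
Summed level (CPM + 1, log axis) of named genes in the 17 endothelial barcodes with 3 or more endothelial and fewer than 2 mural genes, the 4 mural barcodes with 3 or more genes and the 19013 melanoma-gene barcodes; bars are exact Poisson 95% intervals, which cover counting error only. Fabp4 stood at 5893 and 176 CPM and Tagln at 8.33 and 6052 CPM in the endothelial and mural sets, whereas Col4a1 stood at 2142 and 1900 CPM.

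The 4 stricter mural barcodes differed among themselves. The deepest, of shMib2 replicate 2 (12061 UMIs), had 56 UMIs of Acta2, 5 of Myh11 and 2 of Rgs5. It had 150 UMIs of the contractile gene Tagln and 12 of 16 contractile genes. Of the UMIs over the 4 barcodes, it also held 30 of 31 for Adm, 30 of 33 for Pgf and 5 of 5 for Vegfa. For Fn1 it held 27 of 35 and for Rbpj 4 of 5, so the mural levels of these genes mostly describe 1 barcode. The shCtrl barcode (7054 UMIs) had 19 UMIs of Rgs5, a pericyte regulator of G protein signalling, 3 of Notch3 and 35 of Acta2, with 8 of 18 other mural genes. The barcode of shMib2 replicate 1 (7656 UMIs) had 11 UMIs of Acta2, 2 of Des and 1 of Cspg4, and the other of shMib2 replicate 2 (1649 UMIs) had 6 of Acta2, 3 of Rgs5 and 2 of Des. By UMIs, Tagln was thus highest in the first of these and Rgs5 and Notch3 in the second, and no barcode carried all 6 mural genes.

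Summed, the contractile Tagln stood at 8.33 CPM (1 UMI) in the stricter endothelial barcodes, against 6052 CPM in the stricter mural ones, 150 of its 172 UMIs in 1 barcode. Tpm2, a muscle tropomyosin, had 0 UMIs against 1865 CPM. Ndufa4l2, a mitochondrial protein found in pericytes, had 0 UMIs against 1232 CPM and was the 1 gene of these 3 found in 4 of 4 mural barcodes. Against the endothelial floor of 25 CPM, Tpm2 was at least 74.6-fold and Ndufa4l2 at least 49.3-fold higher in the mural barcodes. These bounds depend on leaving out the barcodes with both programs, which had 15 and 12 UMIs of Tpm2 and 29 and 8 of Ndufa4l2. The other mural list that holds Ndufa4l2 did not move as 1. Mcam, its member with the most UMIs, stood the other way, at 425 CPM (316 to 559) against 176 CPM (57.1 to 411), with overlapping intervals. Cox4i2 stood at 8.33 CPM (1 UMI) against 211 CPM (6 UMIs), and Tbx2 had 0 UMIs in both sets. The barcodes with both programs had 76 and 4 UMIs of Cox4i2 and 3 and 3 of Tbx2. Col1a1, a fibrillar collagen, had 0 UMIs against 1759 CPM, below the 7268 CPM of a fibroblast gate (a UMI of Dcn or Pdgfra and at least 2 of Col1a1, Col1a2, Col3a1, Dcn and Pdgfra, so that Col1a1 is partly set by it). Bgn, a matrix proteoglycan, stood at 100 CPM against 3308 CPM. The barcodes with both programs had 6 and 7 UMIs of Col1a1 and 32 and 8 of Bgn. Fibrillar collagen genes took 1.01% of UMIs in the stricter mural barcodes, 3.60% in the barcodes with mural genes left out for Dcn or Pdgfra and 3.81% in the fibroblast gate, while a list of 11 other fibroblast genes took 0.053% and 0.823% in the stricter mural barcodes and the fibroblast gate. Whether mural or fibroblast messages make up the collagen was not tested.

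Over the whole rule, endothelial against mural within each library, 54 of 7301 genes with 20 or more UMIs were at least 2-fold higher in all 3 libraries (0.74% of the genes) and 11 at least 2-fold lower (0.151%, and 0.89% either way), on a scale of CPM + 10. Igfbp3 stood at 1007, 687 and 62.1 CPM in endothelial rule barcodes, against 0 UMIs in mural rule barcodes of any library. Fabp4 stood at 1647, 1062 and 180 CPM, against 0, 112 and 0 CPM, a mean log2 difference of 4.92 ± 2.2 (SD, n = 3). Both groups kept apart in every library, but shCtrl, with 1 endothelial barcode of 3 or more genes, gave the lowest endothelial level of each. Barcodes with 3 or more genes held 98.4% of Igfbp3, 91.7% of Fabp4, 90.1% of Ctla2a and 97.1% of Gpihbp1 UMIs of the endothelial rule. The other genes of the endothelial side by the same measure were Esam, Plvap, Mest, Ccnd1, Esm1, Cldn5, Hmox1 and Fam167b, with mean log2 differences between 2.65 and 3.29.

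A pair of these behaved differently. Of the 485 UMIs of Hmox1, a heme oxygenase, 476 lay in endothelial rule barcodes with 7 or more melanoma genes, and its mean log2 difference of 2.66 became -0.75 without such barcodes. Ccnd1, cyclin D1, stood at 272, 412 and 536 CPM against 78.0, 0 and 179 CPM, with 25.2% of its UMIs in barcodes with 3 or more genes.

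On the mural side, Tagln stood at 6.33, 4.57 and 3.27 CPM in endothelial rule barcodes, against 127, 2602 and 71.5 CPM in mural rule barcodes, a mean log2 difference of -4.39 ± 2.69. Tpm2 differed by -3.92 ± 0.98, Col1a1 by -3.80 ± 0.69, Bgn by -3.61 ± 0.69 and Ndufa4l2 by -2.53 ± 0.29 (SD, n = 3). Of these 5, Ndufa4l2 varied least over libraries. Most of the endothelial UMIs of these genes came from the 2 barcodes with both programs, which held 27 of 28 for Tpm2, 13 of 15 for Col1a1 and 37 of 39 for Ndufa4l2. The remaining named mural genes were Col1a2, Col6a3, Hspb1, a small heat shock protein, and Trak2, a mitochondrial transport adaptor.

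By list, 5 of 16 other endothelial genes with enough UMIs were called higher in the endothelial rule (median log2 difference 2.14, against 0.14 over all 7301 genes), 4 of 14 tip genes (1.65), 2 of 7 capillary genes (2.15), 2 of 8 junction genes (1.64), 1 of 3 angiopoietin genes (2.05) and 1 of 14 basement membrane genes (0.77). Called higher in the mural rule were 5 of 10 fibrillar collagen genes (-2.17), 2 of 10 contractile genes (-0.78) and 1 of 8 other mural genes (-0.14). None was called of 7 Notch, 5 VEGF, 3 PDGF, 10 TGF-beta, 5 arterial, 4 venous and 7 vasoactive genes. Over all 7301 genes, 0.74% were called higher in the endothelial rule and 0.151% in the mural rule. Lists this short with none called thus give no result about their genes. The median of the other mural list was near that of all genes.

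Between the labels, the endothelial rule barcodes were summed per library and tested by quasi-likelihood in edgeR, with p-values adjusted by Benjamini-Hochberg, in which the single shCtrl library is assumed to vary like the shMib2 pair. Of 5403 genes, 184 were higher in shMib2 (3.41%) and 8 lower (0.148%, and 3.55% either way). Without the 4 members that had 2 or more mural genes, 141 were higher and 2 lower. Mural rule barcodes, under 10 in every library, were not tested. The levels below are CPM over the tested genes. Of the 5 genes with the lowest p-values, 4 were interferon-induced. Ifit3, an antiviral gene, stood at 31.7 and 438 CPM in the shMib2 libraries, against 0 UMIs in shCtrl, and Isg15, a ubiquitin-like interferon product, at 63.4 and 888 CPM against 13.1 CPM (log2 difference 5.28, standard error 0.58, edgeR adjusted p = 2.67e-16). Rsad2, another antiviral gene, stood at 57.1 and 775 CPM against 13.1 CPM, and Cxcl10, a chemokine, at 0 and 453 CPM against 6.54 CPM. One barcode of shMib2 replicate 2 (58252 UMIs, 10 of 10 melanoma genes, 2 endothelial genes) held 97.3% of Ifit3, 88.6% of Isg15, 96.0% of Rsad2 and 84.9% of Cxcl10 UMIs, so these calls describe 1 barcode.

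The other 8 named genes that were higher were S100a6, Cav1, Ly6a, Igfbp3, Cd93, Aqp1, Ctla2a and Tagln2, several of them typical of endothelium, such as the caveolar coat protein Cav1, the water channel Aqp1 and the surface receptor Cd93. S100a6, a calcium binding protein, stood at 1079 and 678 CPM in shMib2, against 32.7 CPM in shCtrl (log2 difference 4.68, standard error 0.53, edgeR adjusted p = 1.50e-15). Igfbp3 stood at 1009 and 688 CPM against 62.2 CPM (3.71, standard error 0.48, edgeR adjusted p = 8.59e-12). Cav1 stood at 311 and 94.6 CPM against 0 UMIs, and Aqp1 at 298 and 156 CPM against 6.54 CPM. Between 88.5% and 99.2% of the UMIs of these 8 genes lay in barcodes with 3 or more endothelial genes, of which 18 of 19 were in shMib2 libraries, 5 of 15, 13 of 31 and 1 of 13 members by library. A change per cell and a change in that makeup cannot be told apart here.

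The 8 lower genes were Cryab, Neat1, Bfsp2, Aldoc, Epha3, Gstp2, Trpm1 and Id2. Cryab, a lens and stress chaperone, stood at 133 and 177 CPM in shMib2, against 484 CPM in shCtrl (log2 difference -1.60, standard error 0.34, edgeR adjusted p = 2.13e-04). Trpm1, a channel gene of pigment cells, stood at 19.0 and 47.3 CPM against 115 CPM. Between 89.1% and 100% of the UMIs of these genes lay in barcodes with 7 or more melanoma genes, which made up 5 of 15 and 12 of 31 members in shMib2, against 12 of 13 in shCtrl. The summed melanoma list took 0.723% and 0.654% of UMIs in shMib2 and 0.829% in shCtrl.

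**Figure D5:**
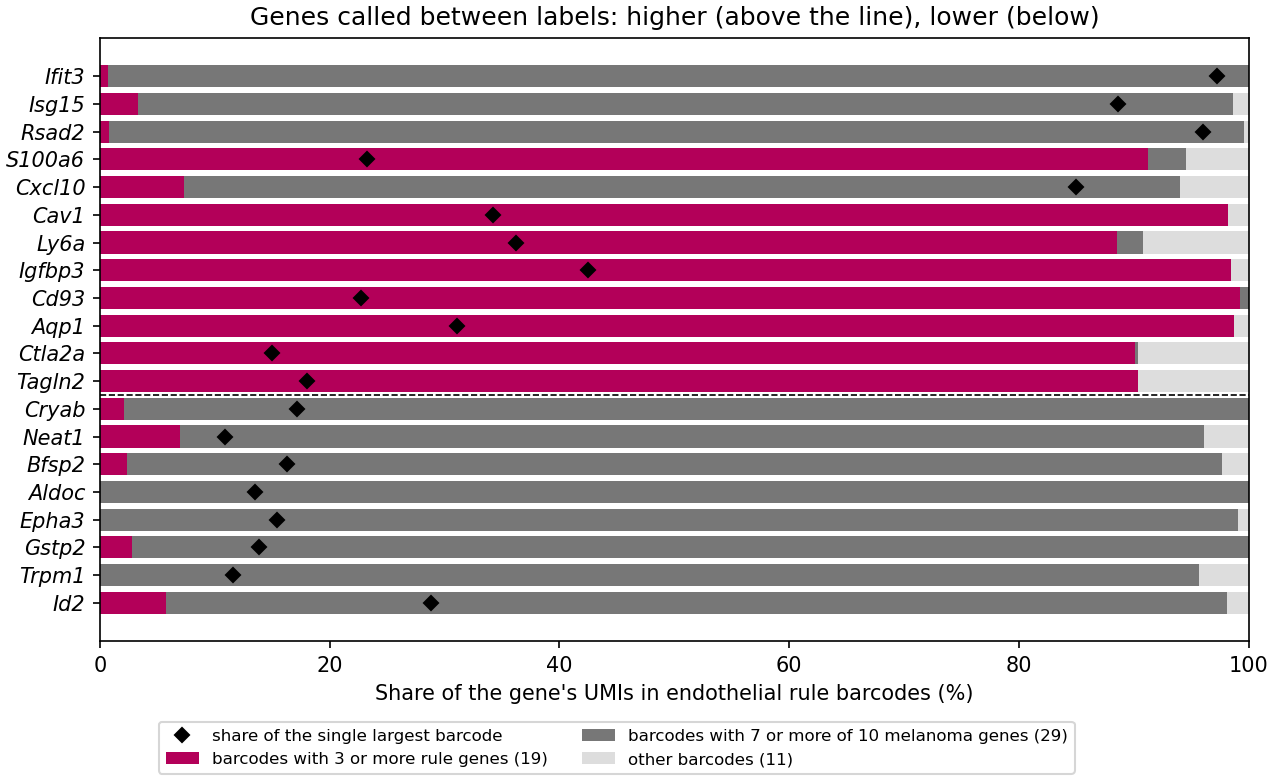
For each named gene called between labels, the share of its endothelial rule UMIs (percent) in barcodes with 3 or more rule genes (19), in barcodes with 7 or more melanoma genes (29) and in the other 11; diamonds give the share of the largest barcode. The interferon genes have diamonds between 84.9% and 97.3%, the other higher genes lie in the first class and the lower genes in the second.

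By list, 7 of 15 other endothelial genes were called higher (median log2 difference 2.88, against 0.01 over all genes). So were 4 of 6 capillary, 5 of 12 tip, 3 of 9 junction and 4 of 12 basement membrane genes. Called higher too were 6 of 11 antigen presentation, 5 of 10 proliferation and 0 of 10 melanoma genes (-0.35). Over all 5403 genes tested, 3.41% were called higher. The 58252-UMI barcode that held most interferon gene UMIs carried 12 of the 15 genes of the antigen presentation list. Lists of other cells had calls as well: 2 of 3 leukocyte (7.45), 2 of 7 other mural (3.48) and 2 of 5 fibrillar collagen genes (6.70) were higher. Few barcodes held such genes. The barcodes with both programs, of shMib2 replicate 2, had 24 and 7 of 34 Col1a2 and 21 and 11 of 32 Col6a3 UMIs of the endothelial rule. No shCtrl member had more than 1 leukocyte gene, against up to 5 and 10 in members of shMib2 replicates 1 and 2. The part of these barcodes in the endothelial calls was not tested. Called endothelial genes included Plvap, at 317 and 145 CPM in shMib2 against 42.5 CPM in shCtrl, and Esam, at 241 and 133 CPM against 16.4 CPM. Col4a1 stood at 692 and 441 CPM against 91.6 CPM. Vegfa was not called (286 and 212 CPM against 164 CPM, edgeR adjusted p = 0.71), and neither was Dll4 (63.4 and 29.0 CPM against 9.82 CPM, edgeR adjusted p = 0.48). Within the stricter endothelial barcodes alone, where shCtrl has 1 barcode, no test was run, since each library had to hold 10. Esm1, Dll4, Pdgfb and Tie1 in that barcode lay within or above the range of the shMib2 libraries, as given above. Other genes lay below both shMib2 libraries there. Aqp1, Rgcc and Cd34 had 2, 2 and 1 UMIs in that barcode of 6302 UMIs, against 842, 633 and 592 CPM over all 17 stricter barcodes.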

How the data were processed

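Each library was made from pooled, dissociated tumors after red cell lysis, with a 5′ single-cell kit per the labels. The authors ran Cell Ranger 4.0.0 against mm10 and deposited filtered matrices of UMI counts for 32285 genes, summing to 190904274, 203298455 and 243926188 UMIs (shMib2 replicates 1 and 2, shCtrl). No annotation of cells was used. Members and gene lists were chosen with earlier results of these data known. Counts were summed per library and group; CPM is per 1000000 UMIs of that sum. The fold of endothelial over mural used log2(CPM + 10), genes with 20 or more UMIs and 2-fold in all libraries. A minimum of 10 barcodes of both groups for a library to enter this fold was met by none (7, 7 and 6 mural), so all 3 were used. Labels were compared with edgeR 4.0.16 (TMM, filterByExpr, R 4.3.3), after tests on simulated data, with DESeq2 1.42.0 as an alternative. Libraries labelled shMib2 carry separate hairpins, and the only spread within a label is that between these 2 libraries. The p-values use a dispersion estimated with information shared over genes, so they do not measure the spread of a single gene. Cxcl10, for example, was called although it stood at 0 and 453 CPM in these libraries. Doublets were scored with Scrublet in scanpy 1.11.5 (0.8% of barcodes for every 1000 marked) and kept, apart from an alternative. Open to naming were the 12 rule genes and up to 12 in each direction by fold (40 or more UMIs) and by label p. So were up to 4 of each list by UMIs, all VEGF, PDGF, angiopoietin and Notch list genes with 20 UMIs, and Mib2. Not all of these are given, so the genes shown are a selection, and others are said to be chosen later. Stricter endothelial barcodes with 2 or more mural genes were left out after the data were seen.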

Additional observations from a re-analysis of the deposited data

Results flagged for a closer look

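Some genes moved one way between labels in endothelial rule barcodes and the opposite way in mural rule barcodes, in every shMib2 library, and for none of them was the difference between the groups tested. The values are CPM in shMib2 replicate 1, shMib2 replicate 2 and then shCtrl, first in endothelial rule and then in mural rule barcodes. Cryab stood at 133, 177 and 484 in endothelial and at 898, 447 and 405 in mural rule barcodes. Neat1, a nuclear noncoding RNA, stood at 57.0, 88.4 and 203 and at 97.6, 399 and 65.5. Aldoc, a glycolytic aldolase, stood at 19.0, 30.5 and 94.9 and at 127, 79.8 and 59.5. Id2, an inhibitor of transcription factor binding, stood at 57.0, 19.8 and 98.1 and at 87.8, 95.8 and 29.8. Des stood at 12.7, 29.0 and 29.4 and at 322, 176 and 71.5, and 25 UMIs of the mural value in shMib2 replicate 1 came from the barcode with skeletal muscle genes. Des is a gene of the rule, so its level in mural rule barcodes is set by the choice of members, and in endothelial rule barcodes shMib2 replicate 2 and shCtrl were nearly equal. Mural rule values rest on 6 or 7 barcodes each.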

How the results depend on the processing

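The endothelial share ratio of shMib2 over shCtrl (2.04) became 9.23 with a Dct plus Pmel ceiling of 0.2% and 10.4 with 3 of 6 genes. It became 10.2 with barcodes thinned to 1000 UMIs and 16.6 without barcodes of 7 or more melanoma genes. The 9.23 rests on 2 shCtrl barcodes, and the 10.4, 10.2 and 16.6 on 1 each. This ratio became 0.762 with no ceiling, 0.441 per barcode under the ceiling, and 1.19 to 2.89 leaving out 1 shMib2 library. The mural ratio (1.31) became 1.73 with the 0.2% ceiling and with 3 of 6 genes, and 5.18 without melanoma-gene members. With 3 of 6 genes and without melanoma-gene members it rests on 1 shCtrl barcode. The mural ratio became 3.49 with Dcn and Pdgfra not used, 0.806 with no ceiling and 0.317 per barcode under it. Leaving out 1 shMib2 library, it became 1.2 to 1.41. Endothelial barcodes per mural barcode (2.95) became 4.75 with 3 of 6 genes and 0.861 with Dcn and Pdgfra not used, and 2.15 to 3.38 leaving out a library. The 54 genes higher in the endothelial rule became 165 (0.2%), 1 (no ceiling), 186 (3 of 6), 12 (thinned), 125 (equal barcode weight), 160 and 6 (pseudocounts 1 and 50 CPM), 28 (50 UMIs), 371 (fold of sums) and 181 (no melanoma-gene members), and 52 to 477 leaving out a library, the last without shCtrl. The 11 lower became 24, 0, 29, 6, 27, 33 and 6 under the same settings up to the pseudocounts, 111 (fold of sums), 230 (Dcn and Pdgfra not used) and 30 (no melanoma-gene members), and 36 to 74 leaving out a library. Between labels, the 184 higher genes became 21 with DESeq2, 88 with no ceiling and 304 with Dcn and Pdgfra not used, and the 8 lower became 0, 3 without Ptprc barcodes, 28 and 2 without endothelial barcodes of 2 or more mural genes. DESeq2 had 154 genes at an unadjusted p under 0.05 of 3622 it adjusted. Ccnd1 reversed with no ceiling (-0.19), Hmox1 with the 0.2% ceiling (-0.095) and without melanoma-gene members (-0.75), and Trak2 with no ceiling (0.036), with 3 of 6 genes (1.12) and without melanoma-gene members (0.93). In all, 21 of 21 named genes kept direction and call with stricter cell filters and 6 of 21 when thinned. Settings on Dcn and Pdgfra, on 2 or more mural genes and on melanoma-gene members were chosen after seeing the data. For other changes the cause was not tested. No paired analysis was possible because the groups share only 1 replicate number and shCtrl has 1 library. Label tests were not run where a library had under 10 barcodes (the mural rule, 3 of 6 genes, the 0.2% ceiling, thinned, no melanoma-gene members), nor leaving out a library, which leaves no residual freedom or no shCtrl.

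Depth and number also limit these values: the stricter mural set had 4 barcodes and 28420 UMIs, and the floor of 3 UMIs there is 106 CPM. The stricter endothelial set had 1 shCtrl barcode, and 1 barcode often held a large part of a gene's UMIs.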
